A study of Rattus norvegicus with 31 samples.

Results

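The genes described here make, load, take up and break down GABA, the main inhibitory transmitter of the forebrain. They are Gad1, Gad2, Slc32a1, Slc6a11 and Abat, and every probeset that the array annotation maps to one of these symbols alone was taken. This gave 5 probesets of 16204, covering 4 of the 5 genes, since no probeset in the table used here is named for Slc6a11, which is not analysed here. The values are from CA3, a subfield of the hippocampus that was dissected by hand from 31 male Long-Evans rats. There was 1 Affymetrix array per rat, with both hemispheres pooled. The rats were aged about 24 months when their spatial memory was tested, some weeks before the training described below. No young and no untrained rats are analysed here. A water maze score of spatial memory had divided the rats beforehand into an aged unimpaired (AU) and an aged impaired (AI) phenotype. After spatial training (S), with a visible platform kept in 1 place among prominent cues, there were 8 AU-S and 8 AI-S rats, and after non-spatial training (NS), with a moving platform and the cues removed, there were 8 AU-NS and 7 AI-NS rats. All had 8 trials and later a probe swim without the platform. CA3 was taken just after that swim, about 2 hours after the task began. AU-act (16 rats) and AI-act (15 rats) pool both tasks. The phenotypes are a division of 1 outbred population by behaviour, so no allele, drug or lesion separates them.

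Gad1 and Gad2 encode the glutamate decarboxylases GAD67 and GAD65, which make GABA from glutamate. In neurons GAD67 supplies much of the GABA of the cell, and GAD65 sits largely at nerve terminals. Slc32a1 encodes VGAT, which loads GABA and glycine into synaptic vesicles. Slc6a11 encodes GAT3, an uptake transporter found mainly on astrocytes, and Abat encodes GABA transaminase, the mitochondrial enzyme that begins the breakdown of GABA. In the hippocampus Gad1, Gad2 and Slc32a1 mark inhibitory interneurons, which are a minority of the cells in CA3 and act on the excitatory pyramidal cells.

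Sequence upstream of 3 of the genes is shown as background, and no relation between it and the array values was tested. The bases are those of RefSeq on the rat build GRCr8, on the plus strand, and they end just before the first annotated base of the gene. RefSeq promoters were found for 4 of the 5 genes, and Abat was not among them. Capitals mark TATAAA.
Gad1, chr3:75777202-75777259: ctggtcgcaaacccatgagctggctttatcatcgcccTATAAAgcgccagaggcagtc
Gad2, chr17:89671598-89671717: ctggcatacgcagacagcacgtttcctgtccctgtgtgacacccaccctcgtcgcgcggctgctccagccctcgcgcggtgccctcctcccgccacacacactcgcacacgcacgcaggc
Slc32a1, chr3:167687125-167687244: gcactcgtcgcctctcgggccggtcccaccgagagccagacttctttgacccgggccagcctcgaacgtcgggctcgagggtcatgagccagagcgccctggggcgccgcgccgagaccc
Motifs were searched on both strands in the 250 bases before each annotated transcript start, and no site found overlapped another. TATAAA was found in the Gad1 window alone of these 3 genes, and 12.9% of 33469 RefSeq promoters hold it. The GC box GGGCGG, present in 30.5% of all promoters, was found once each for Gad1 and Slc32a1. The TGACG part of a cyclic AMP response element, present in 18.2%, was found once for Slc32a1, and the E-box CANNTG, present in 65.5%, once for Gad1. None of these motifs was found in the Gad2 window, and the sites other than TATAAA lie outside the bases shown. The transcript start used for Gad1 lies within the annotated gene, and so do its GC box and E-box. Gad1 spans chr3:75777260-75818099, Gad2 chr17:89671718-89734246, Slc32a1 chr3:167687245-167691714 and Abat chr10:7503351-7599474 on this build. Where the array's probes lie along these transcripts is not given in the sources used here.

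GABA synthesis genes were higher in aged unimpaired than in aged impaired rats at 2 of the 3 probesets. With both tasks pooled, Gad2 and 1 of the 2 Gad1 probesets rose in AU-act relative to AI-act, by 0.48 and 0.55 on the log2 scale (1.40-fold and 1.46-fold). The brighter Gad1 probeset, Slc32a1 and Abat did not pass the test. All 5 differences were above 0, with a median of 0.11, against a median of 0.01 and 53.3% above 0 over all probesets, though Slc32a1 turned below 0 without AU-NS replicate 2, AU-S replicate 3 or AU-S replicate 6 and with the hexokinase control covariate. Of the 5 probesets, 2 were called (40%) at an adjusted p under 0.05 from limma, where 5.51% of all 16204 were called, 810 higher and 83 lower. Neither call held with a control measure of RNA length, which itself differed between the phenotypes, as a covariate (differences of 0.22 for Gad2 and 0.31 for Gad1). In bulk tissue, fewer cells of a type and less RNA per cell cannot be told apart.

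**Figure D1:**
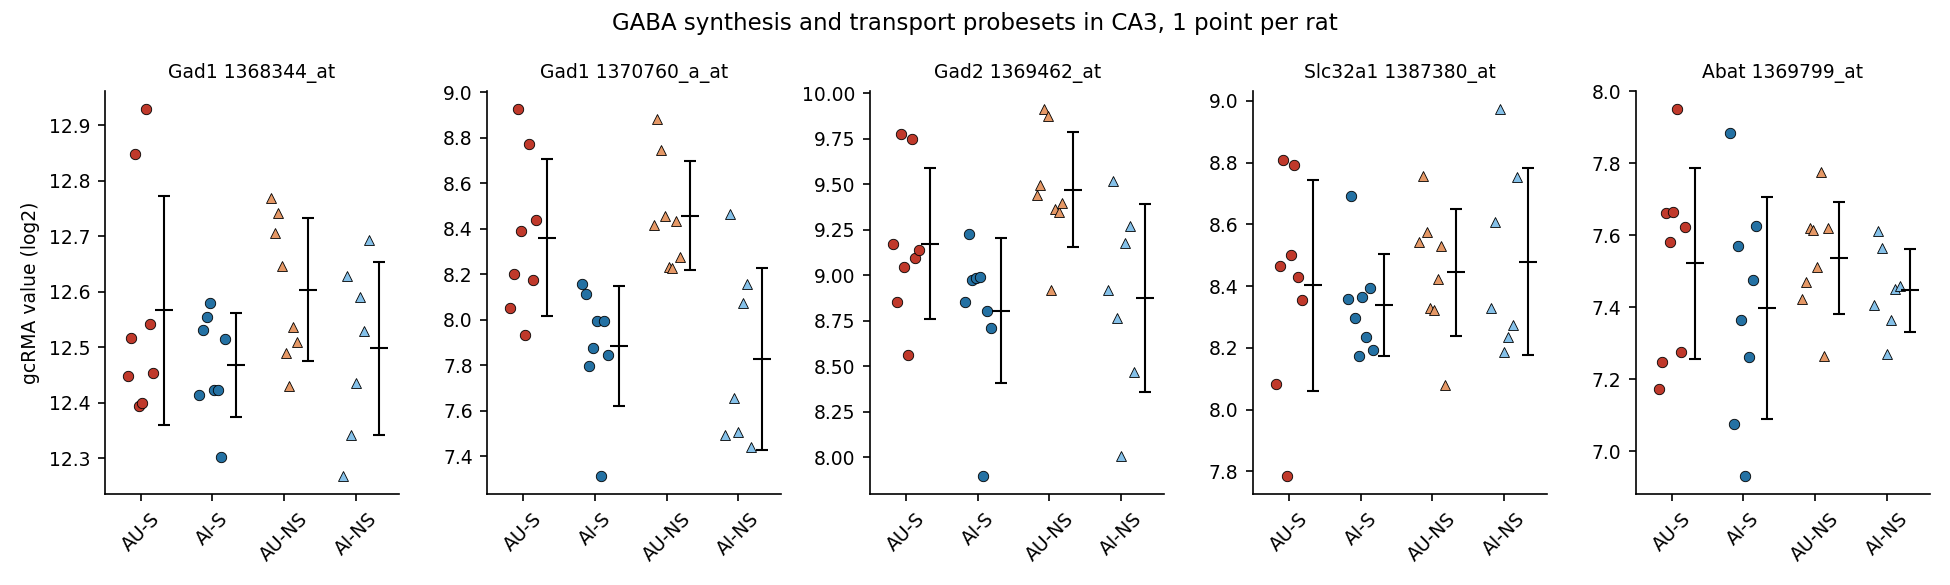
Log2 gcRMA value (vertical axis, scaled separately in each panel and not starting at 0) of the 5 probesets in AU and AI rats by task (horizontal axis), with 1 point per rat and the mean and SD as a bar. For the dimmer Gad1 probeset all 16 AU rats lie above the AI-act mean of 7.86, while for Slc32a1 the groups lie over each other.

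Gad1 is read by 2 probesets. The dimmer, 1370760_a_at, carries a suffix that the maker uses for probesets shared by transcripts of 1 gene, and its mean over the rats stood at percentile 34.3 of all probesets, a rank of signal and not of mRNA amount. In AU-S rats the lowest, median and highest values were 7.93, 8.30 and 8.93 on the log2 scale, against 7.31, 7.94 and 8.16 in AI-S rats. In AU-NS rats they were 8.23, 8.42 and 8.88, against 7.44, 7.65 and 8.46 in AI-NS rats. The phenotypes overlapped, but 6 of 8 AU-S rats exceeded every AI-S rat, and 6 of 7 AI-NS rats lay below every AU-NS rat. Pooled, it averaged 8.41 ± 0.29 in AU-act rats (SD, n = 16) and 7.86 ± 0.32 in AI-act rats (SD, n = 15), a difference of 0.55 (SE 0.11, 95% interval 0.33 to 0.77, limma adjusted p = 0.00255). All 16 AU-act rats were above the AI-act mean, and 14 of 15 AI-act rats were below the AU-act mean. The call held without each single rat, with a difference of 0.51 to 0.59.

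The brighter Gad1 probeset, 1368344_at, was among the brightest of the 16204 probesets used here, at percentile 95.1. Its lowest, median and highest values were 12.39, 12.49 and 12.93 in AU-S rats, against 12.30, 12.47 and 12.58 in AI-S rats. They were 12.43, 12.59 and 12.77 in AU-NS rats, against 12.27, 12.53 and 12.69 in AI-NS rats. AU-S replicates 3 and 6 were the highest. In all, 5 of 16 AU-act rats lay above every AI-act rat, and 3 of 15 AI-act rats lay below every AU-act rat, with the others overlapping. The pooled means were 12.59 ± 0.17 in AU-act rats (SD, n = 16) and 12.48 ± 0.12 in AI-act rats (SD, n = 15), and the difference of 0.10 (SE 0.05, 95% interval -0.00 to 0.21, limma adjusted p = 0.283) did not pass. The same symbol therefore gave a called and an uncalled probeset. The mean of both Gad1 probesets differed by 0.33 between AU-act and AI-act (limma adjusted p = 0.00584). That mean includes the dimmer probeset, with its difference of 0.55, and was not fitted with the control measure of RNA length.

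The phenotype differences of the 2 Gad1 probesets were set against each other within each array, a comparison chosen because 1 of them was called and the other was not, so it is given as a description with no test. The log2 value of the dimmer probeset minus that of the brighter was 0.45 larger in AU-act rats than the AI-act value, and 16 of 16 AU-act rats exceeded the mean of the AI-act rats. After spatial training the difference was 0.38, with 8 of 8 AU-S rats above the AI-S mean. After non-spatial training it was 0.53, with 8 of 8 AU-NS rats above the AI-NS mean.

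Gad2, read by 1369462_at alone, stood at percentile 51.0 of all probesets. The lowest, median and highest values were 8.56, 9.12 and 9.78 in AU-S rats, against 7.90, 8.91 and 9.23 in AI-S rats. They were 8.92, 9.42 and 9.91 in AU-NS rats, against 8.01, 8.92 and 9.52 in AI-NS rats. The 3 lowest rats of all were AI rats, and the upper parts of the groups overlapped. Pooled, Gad2 averaged 9.32 ± 0.39 in AU-act rats (SD, n = 16) and 8.84 ± 0.44 in AI-act rats (SD, n = 15), a difference of 0.48 (SE 0.14, 95% interval 0.19 to 0.77, limma adjusted p = 0.0391). Of the 16 AU-act rats, 15 exceeded the mean of the AI-act rats. This call is near the threshold and was lost without any 1 of 12 rats: AU-S replicates 3 and 6, AU-NS replicates 1, 2, 3, 4 and 8, AI-S replicates 6 and 8, or AI-NS replicates 1, 5 and 8. Without one of these the difference was 0.42 to 0.49 and the limma adjusted p 0.0505 to 0.0685.

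Slc32a1, the vesicular GABA transporter gene, differed little between the phenotypes. Its probeset 1387380_at had lowest, median and highest values of 7.78, 8.45 and 8.81 in AU-S rats, against 8.17, 8.33 and 8.69 in AI-S rats. They were 8.08, 8.48 and 8.76 in AU-NS rats, against 8.19, 8.33 and 8.97 in AI-NS rats. The lowest rat of all was an AU-S rat and the highest an AI-NS rat, and no AU-act rat exceeded every AI-act rat. The pooled means were 8.42 ± 0.27 in AU-act rats (SD, n = 16) and 8.40 ± 0.24 in AI-act rats (SD, n = 15), with a difference of 0.02 (95% interval -0.16 to 0.20, limma adjusted p = 0.943). The interval holds no pooled rise or fall as large as the difference seen for Gad2. It overlaps the Gad2 interval of 0.19 to 0.77, however, and the differences of the 2 genes were not compared by a test. The sign of the Slc32a1 difference turned without AU-NS replicate 2 (-0.00), AU-S replicate 3 (-0.01) or AU-S replicate 6 (-0.01).

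Abat, the gene for the enzyme that degrades GABA, did not differ beyond the spread of the rats, and its probeset 1369799_at stood at percentile 24.6 of all probesets. It had lowest, median and highest values of 7.17, 7.60 and 7.95 in AU-S rats, against 6.93, 7.42 and 7.88 in AI-S rats. They were 7.26, 7.56 and 7.78 in AU-NS rats, against 7.27, 7.45 and 7.61 in AI-NS rats. The groups overlapped over most of their range, and the SD was 0.27 in AU-S against 0.16 in AU-NS rats and 0.31 in AI-S against 0.12 in AI-NS rats, a difference that was not tested. The pooled means were 7.53 ± 0.21 in AU-act rats (SD, n = 16) and 7.42 ± 0.23 in AI-act rats (SD, n = 15), with a difference of 0.11 (95% interval -0.05 to 0.27, limma adjusted p = 0.469).

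**Figure D2:**
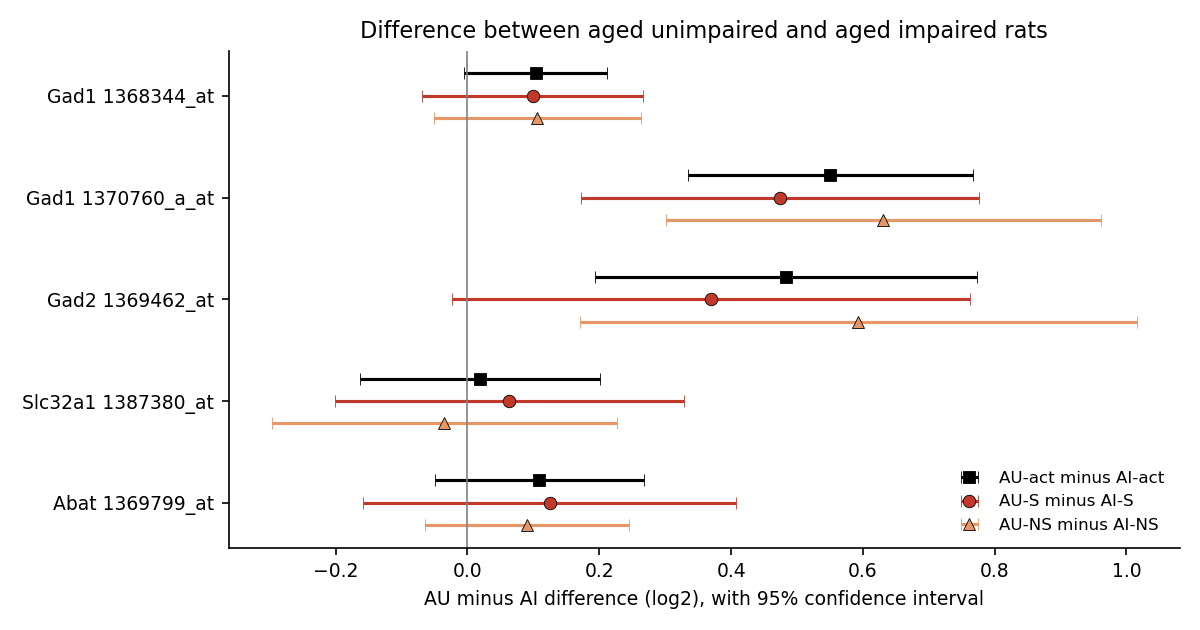
AU minus AI difference on the log2 scale (horizontal axis) with its 95% confidence interval for each of the 5 probesets (vertical axis), with tasks pooled (squares), after spatial training (circles) and after non-spatial training (triangles). The dimmer Gad1 probeset has intervals above 0 in all 3 comparisons, Gad2 in the pooled and non-spatial ones, and Slc32a1 lies on both sides of 0.

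Within each task the same probesets had the largest differences, and none of the 5 passed a limma adjusted p under 0.1. After spatial training 0 of 5 were called, where 0.413% of all probesets (67) were, and 1 of the 5, against 12.3% of all, had an unadjusted p under 0.05, and SAM too called 0 of the 5. The dimmer Gad1 probeset averaged 8.36 ± 0.35 in AU-S rats and 7.89 ± 0.26 in AI-S rats (SD, n = 8 each), a difference of 0.47 (95% interval 0.17 to 0.78, limma adjusted p = 0.179). Each of the 8 AU-S rats exceeded the mean of the AI-S rats. Gad2 averaged 9.17 ± 0.41 in AU-S rats and 8.81 ± 0.40 in AI-S rats (SD, n = 8 each), a difference of 0.37 (95% interval -0.02 to 0.76, limma adjusted p = 0.439), and without AI-S replicate 6, the lowest rat, it was 0.24 (limma adjusted p = 0.601). Slc32a1, Abat and the brighter Gad1 probeset differed by 0.06, 0.12 and 0.10.

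After non-spatial training 0 of 5 were called, and limma called 0 (0%) of all probesets, with 1858 at an unadjusted p under 0.05 and 15 called by SAM. An unadjusted p under 0.05 was seen for 2 of the 5, against 11.5% of all. The dimmer Gad1 probeset averaged 8.46 ± 0.24 in AU-NS rats (SD, n = 8) and 7.83 ± 0.40 in AI-NS rats (SD, n = 7), a difference of 0.63 (95% interval 0.30 to 0.96, limma adjusted p = 0.176). Each of the 8 AU-NS rats exceeded the mean of the AI-NS rats. Without AI-NS replicate 3, the highest AI-NS rat, the difference was 0.74 and it passed (limma adjusted p = 0.0677). Gad2 averaged 9.47 ± 0.32 in AU-NS rats (SD, n = 8) and 8.88 ± 0.52 in AI-NS rats (SD, n = 7), a difference of 0.59 (95% interval 0.17 to 1.02, limma adjusted p = 0.269), with 8 of 8 AU-NS rats above the AI-NS mean. Slc32a1 differed by -0.04, Abat by 0.09 and the brighter Gad1 probeset by 0.11.

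Whether the phenotype difference itself differed between tasks was tested as an interaction, (AU-S minus AI-S) minus (AU-NS minus AI-NS). It was -0.16 for the dimmer Gad1 probeset (95% interval -0.60 to 0.29), -0.22 for Gad2 (-0.80 to 0.36) and 0.10 for Slc32a1 (-0.27 to 0.47). Abat had 0.03 (-0.29 to 0.36) and the brighter Gad1 probeset -0.01 (-0.23 to 0.22). None of the 5 passed, at limma adjusted p-values of 1 throughout, and limma called 0 (0%) of all probesets, with 396 at an unadjusted p under 0.05. The intervals of the dimmer Gad1 probeset and Gad2 are wide enough to hold a difference between tasks as large as the pooled phenotype difference.

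The training task alone gave no call either. For AU-S minus AU-NS, AI-S minus AI-NS and S minus NS, 0 of 5 members were called and limma called 0 (0%) of all probesets each time, with 1316, 662 and 1842 at an unadjusted p under 0.05. SAM called 0 of the 5 members in each of these comparisons. Gad2 had the most distant value of the set, at -0.29 for AU-S minus AU-NS (95% interval -0.65 to 0.06, limma adjusted p = 0.651), at percentile 1.83 of all probesets. Of the 8 AU-S rats, 2 lay above the AU-NS mean. In AI rats Gad2 differed by -0.07 between tasks (95% interval -0.53 to 0.38, limma adjusted p = 0.949). The S minus NS differences of the other probesets lay between -0.09 (Slc32a1) and -0.04 (Abat).

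By group mean, the dimmer Gad1 probeset ran AU-NS (8.46), AU-S (8.36), AI-S (7.89) and AI-NS (7.83), and the step between AU-S and AI-S was the one step larger than the SD of both neighbours. Gad2 ran AU-NS (9.47), AU-S (9.17), AI-NS (8.88) and AI-S (8.81), with no step between neighbours larger than their SDs. Abat (7.54, 7.52, 7.45 and 7.40) and the brighter Gad1 probeset (12.60, 12.57, 12.50 and 12.47) ran in that same order of groups, with steps within the SDs. Slc32a1 ran AI-NS (8.48), AU-NS (8.44), AU-S (8.40) and AI-S (8.34), again with steps within the SDs.

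Across the 31 rats the synthesis genes varied together, most closely Gad2 and the dimmer Gad1 probeset. Both also moved with the control measure of RNA length described below (r = -0.64 and -0.75). Relations were computed for 10 pairs of the 5 probesets, with Benjamini-Hochberg adjustment over the pairs. The points share arrays and their scaling. The dimmer Gad1 probeset and Gad2 had r = 0.86 (permutation test, p = 1e-05, adjusted p = 0.0001) and rho = 0.85 (permutation test, p = 1e-05, adjusted p = 0.0001), where 1e-05 is the smallest p the permutations can give. Without the 2 rats farthest from the median of the dimmer Gad1 probeset r was 0.82, and it was 0.78 within AU-act rats and 0.84 within AI-act rats. Within the groups r was 0.90 in AU-S, 0.87 in AI-S, 0.57 in AU-NS and 0.85 in AI-NS rats. Rats low for Gad2 thus tended to be low at this Gad1 probeset, in both phenotypes.

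The brighter Gad1 probeset followed these less closely. The 2 farthest rats are here those farthest from its own median. With its own second probeset r was 0.62 (permutation test, p = 0.00021, adjusted p = 0.00105) and rho 0.55 (permutation test, p = 0.00148, adjusted p = 0.00493), with 0.49 without the 2 farthest rats, 0.81 within AU-act and 0.27 within AI-act rats. With Gad2 r was 0.61 (permutation test, p = 0.00044, adjusted p = 0.00147) and rho 0.64 (permutation test, p = 0.00021, adjusted p = 0.00105), with 0.51 without the 2 farthest rats, 0.76 within AU-act and 0.27 within AI-act rats. With Slc32a1 r was 0.45 (permutation test, p = 0.0107, adjusted p = 0.0267) and rho 0.39 (permutation test, p = 0.0287, adjusted p = 0.0684). That relation fell to r = 0.29 without the 2 farthest rats and to 0.05 within AI-act rats, against 0.73 within AU-act rats, so it rests in part on those rats. The difference between the phenotypes in these correlations was not tested. The other 6 pairs had r from 0.16 (Slc32a1 and Abat) to 0.36 (the dimmer Gad1 probeset and Abat), with adjusted permutation p-values of 0.089 or more.

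**Figure D3:**
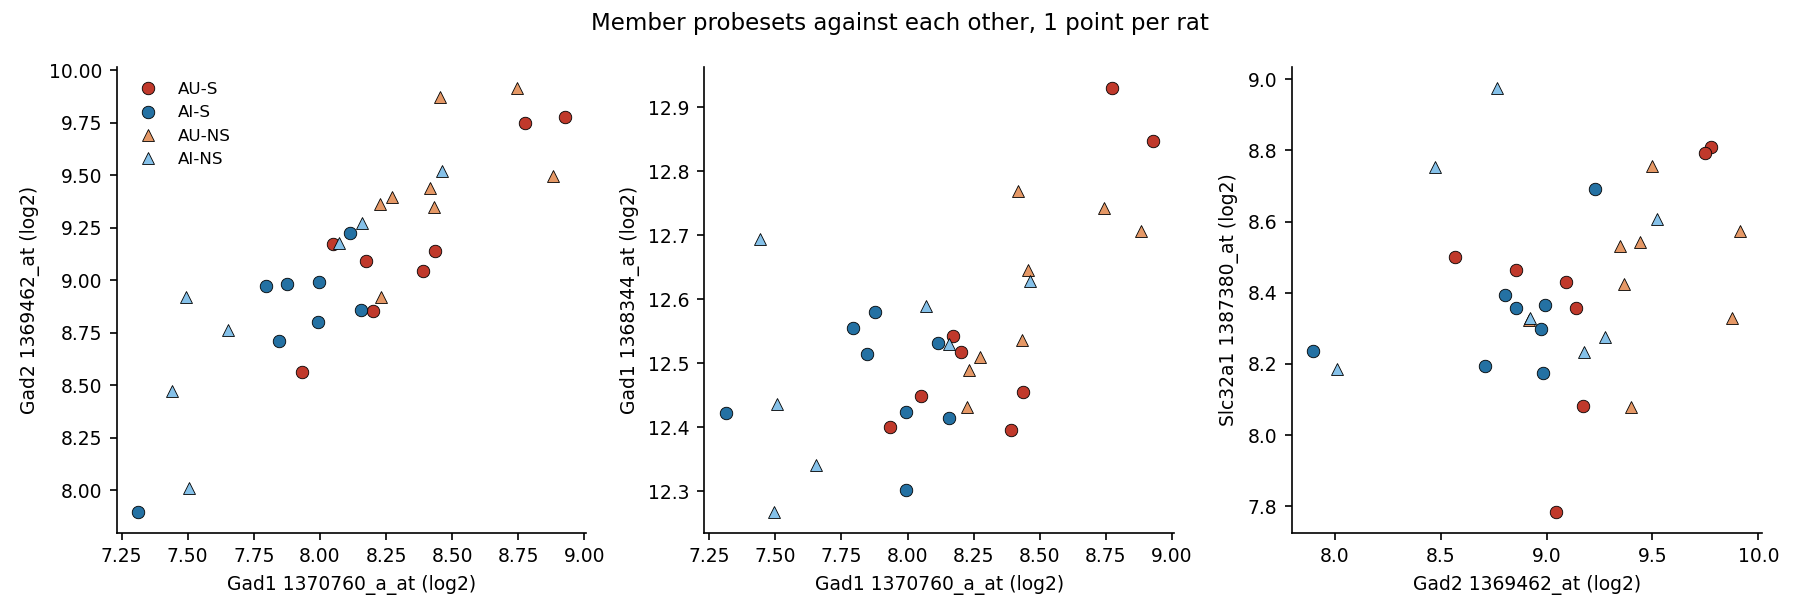
Log2 value of Gad2 (left) and of the brighter Gad1 probeset (middle) against the dimmer Gad1 probeset, and of Slc32a1 against Gad2 (right), with 1 point per rat, circles for spatial and triangles for non-spatial training, red tones for AU and blue tones for AI. The left panel is the tightest (r = 0.86), and AI-S replicate 6 and AI-NS replicate 5 lie at its lower end.

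The probesets whose pattern over the 31 rats was most like that of each gene's brightest probeset were sought by Pearson's r, given here as a description. Nearest to Gad2, after the dimmer Gad1 probeset, were Cnr1, the CB1 cannabinoid receptor gene (r = 0.84), and Synrg, which encodes a clathrin adaptor partner (r = 0.77). Nearest to the brighter Gad1 probeset were C2h3orf80 (0.66), Nap1l5 (0.63) and the tetraspanin gene Tspan9 (0.63). Nearest to Slc32a1 were Cadps2, a gene of dense core vesicle release (0.67), Samm50, of mitochondrial outer membrane assembly (0.65), and the DNA ligase gene Lig1 (0.64). Nearest to Abat were Arhgef17 (0.75), the autophagy gene Wipi2 (0.73) and Plppr2 (0.71). With each brightest probeset, the median r over all probesets lay between -0.00 and 0.05. No other member was among the 3 nearest to Slc32a1 or Abat. The genes nearest to Gad2 also moved with the RNA length control, the 3′ minus 5′ value of array control probesets. Its r was -0.75 with Cnr1 and -0.83 with Synrg, where it was -0.64 with Gad2. With those nearest to the brighter Gad1 probeset, Slc32a1 and Abat it lay between -0.55 (Wipi2) and 0.09 (C2h3orf80).

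The 2 called probesets moved with a sign of RNA length. Control probesets of the array read beta-actin and Gapdh at either end of the transcript, and the 3′ value minus the 5′ value grows where RNA is shorter. This control difference averaged 1.45 ± 0.10 in AU-act rats (SD, n = 16) and 1.59 ± 0.13 in AI-act rats (SD, n = 15), as a log2 value (permutation test, two-sided, p = 0.00096). For the tasks apart, AU-S minus AI-S was -0.11 (two-sided exact permutation test, p = 0.0502) and AU-NS minus AI-NS was -0.18 (two-sided exact permutation test, p = 0.00591). The AU rats thus had the smaller control difference, and 1 of 16 lay above the AI-act mean. The measure is the mean over 2 controls, which differed unequally. AU minus AI was -0.21 for beta-actin and -0.07 for Gapdh (two-sided permutation tests, p = 0.00046 and 0.0219). After spatial training it was -0.18 and -0.03 (two-sided exact permutation tests, p = 0.0232 and 0.39). After non-spatial training it was -0.24 and -0.11 (two-sided exact permutation tests, p = 0.00963 and 0.0121).

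Relations with this control difference were computed for the 5 probesets and for the log2 difference of the Gad1 pair. These were 6 in all, and the Benjamini-Hochberg adjustment ran over the 6. The 2 farthest rats are here those farthest from the median of the control difference. For the dimmer Gad1 probeset it gave r = -0.75 (permutation test, p = 2e-05, adjusted p = 6e-05) and rho = -0.77 (permutation test, p = 1e-05, adjusted p = 3e-05), with -0.76 without the 2 farthest rats and -0.61 within AU-act as within AI-act rats. Gad2 had r = -0.64 (permutation test, p = 0.00016, adjusted p = 0.00032) and rho = -0.59 (permutation test, p = 0.00065, adjusted p = 0.0013), with -0.70 without the 2 farthest rats, -0.57 within AU-act and -0.46 within AI-act rats. The Gad1 pair's difference was chosen from these data and holds the dimmer probeset, so its relation is given as a description only. It had r = -0.84 and rho = -0.83, with -0.79 without the 2 farthest rats, -0.70 within AU-act and -0.79 within AI-act rats. The brighter Gad1 probeset (r = -0.16), Slc32a1 (-0.05) and Abat (-0.21) had adjusted permutation p-values for r of 0.398 or more. The brighter Gad1 probeset had -0.41 without the 2 farthest rats, and -0.28 within AU-act against 0.41 within AI-act rats. The members that rose in AU-act rats were thus those that were lower where the control difference was larger.

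**Figure D4:**
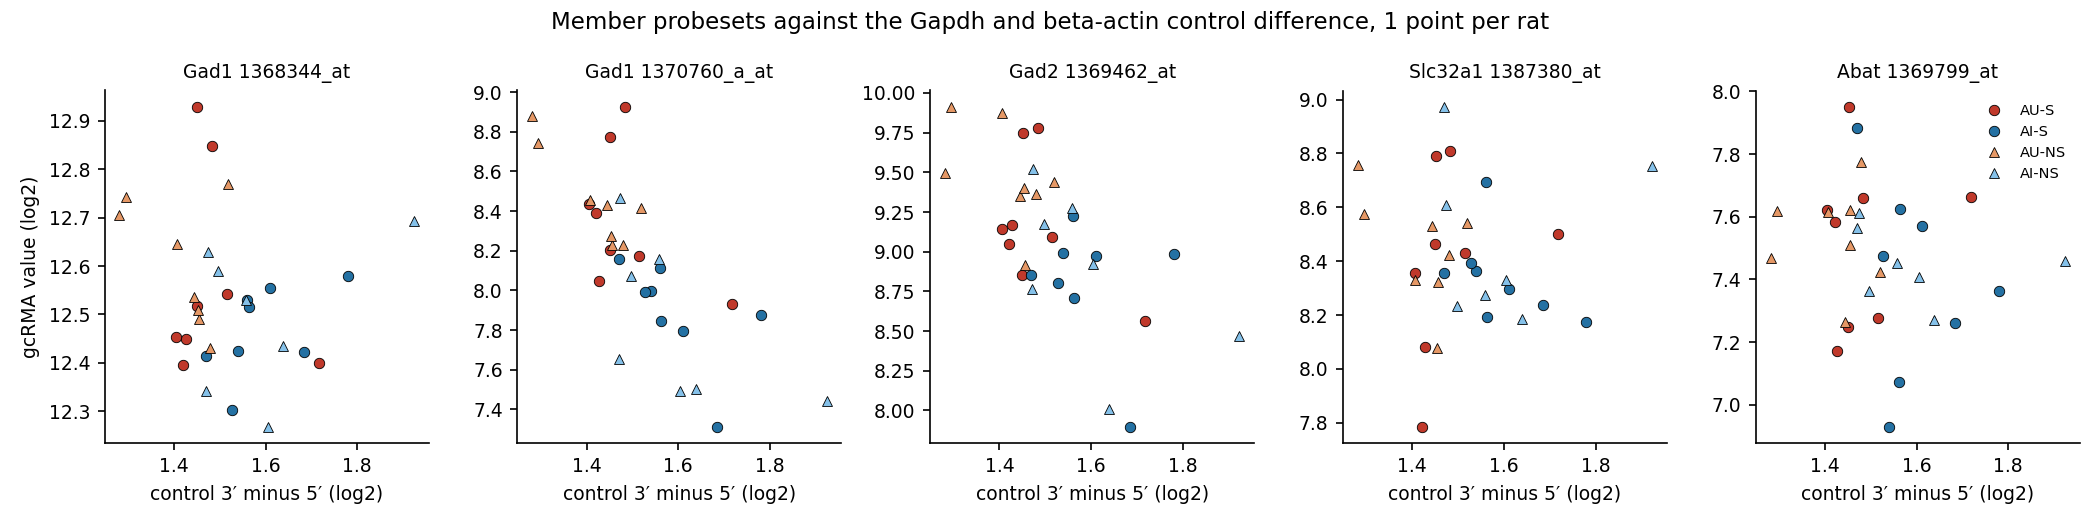
Log2 value of each probeset (vertical axis, scaled separately in each panel) against the Gapdh and beta-actin control difference (horizontal axis, log2), with 1 point per rat in the colours of the 4 groups. The dimmer Gad1 probeset (r = -0.75) and Gad2 (r = -0.64) fall as the control difference grows, and Slc32a1 (r = -0.05) shows no such slope.

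With the control difference as a covariate, the dimmer Gad1 probeset differed by 0.31 (limma adjusted p = 0.242) and Gad2 by 0.22 (limma adjusted p = 0.598) between AU-act and AI-act, and limma then called 0 of 5 members and 1 of all probesets. The hexokinase control difference, added after the data were seen, averaged 1.41 ± 0.15 in AU-act rats (SD, n = 16) and 1.79 ± 0.27 in AI-act rats (SD, n = 15; two-sided permutation test, p = 0.0001). With it as the covariate the probesets differed by 0.24 (limma adjusted p = 0.683) and 0.06 (limma adjusted p = 0.954), and 0 of 5 members and 0 of all probesets were called. Slc32a1 then had -0.05, and the brighter Gad1 probeset 0.10. The part of RNA length in the Gad1 and Gad2 differences was not tested.

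**Figure D5:**
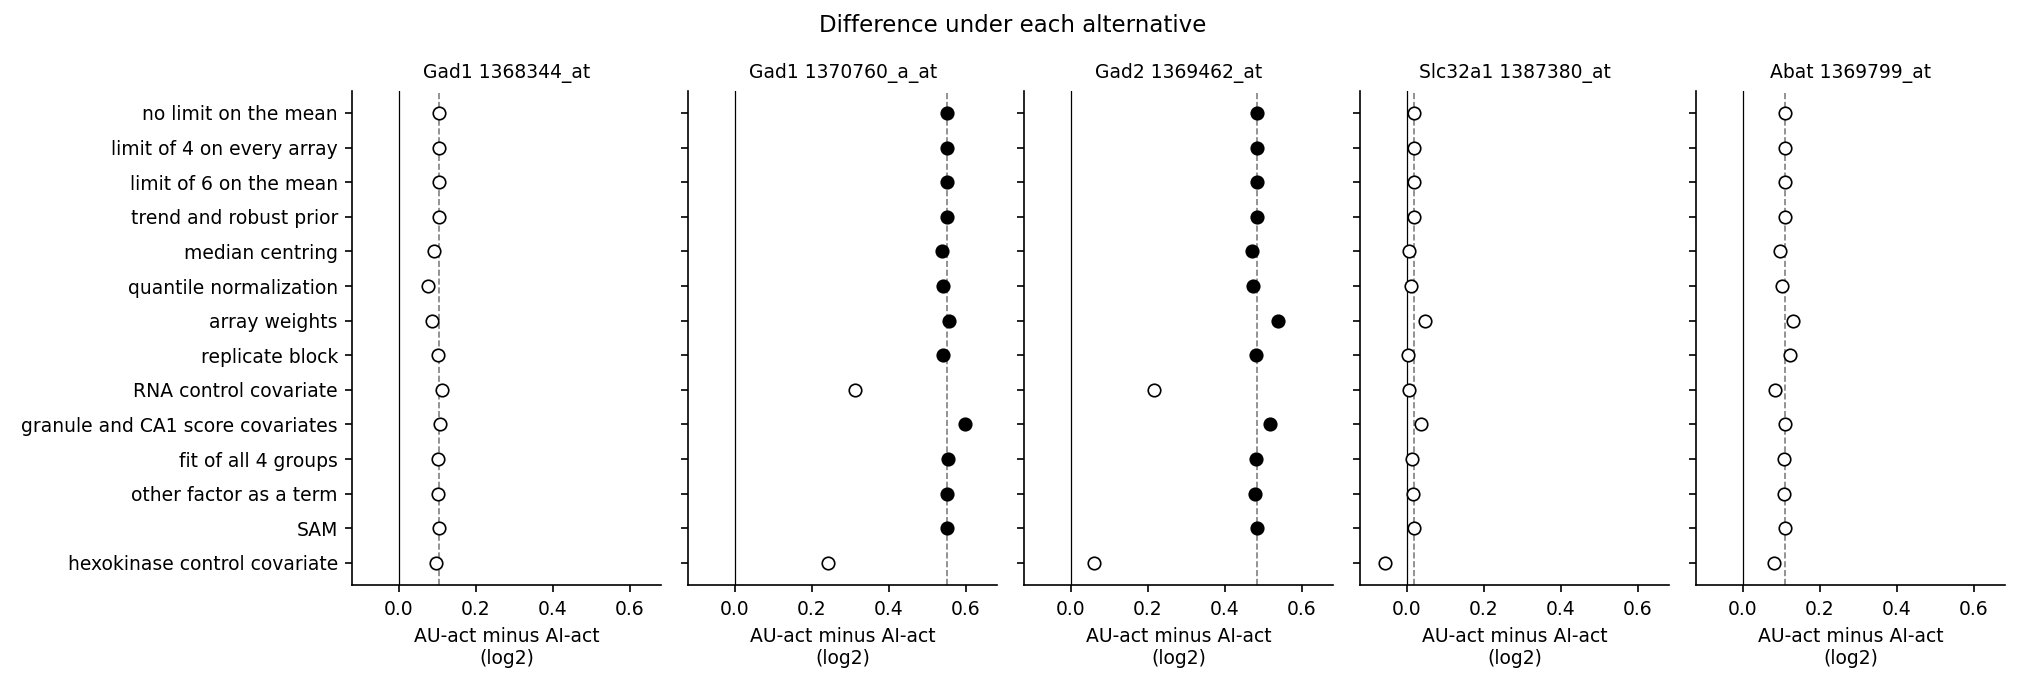
AU-act minus AI-act difference on the log2 scale (horizontal axis) of each probeset under 14 other ways of processing or fitting (vertical axis), with the value as reported as a dashed line and filled points where the adjusted p (for SAM, the q) was under 0.05. Gad2 and the dimmer Gad1 probeset keep their difference under the limits, scalings and weights, and drop to 0.22 for Gad2 and 0.31 for Gad1 with the RNA control covariate, and to 0.06 for Gad2 and 0.24 for Gad1 with hexokinase.

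Other genes of GABA metabolism and of the glutamate supply were taken from a list of 25, of which 18 had a probeset. At each gene's brightest probeset, 0 of 18 were called, with 16 of 18 differences above 0 and a median of 0.05, against 0.01 over all probesets. The smallest adjusted p-values were those of Glud1, glutamate dehydrogenase, at 0.14 (SE 0.06, limma adjusted p = 0.132), Ogdh, of the citric acid cycle, at 0.09 (SE 0.04, limma adjusted p = 0.183), and Sucla2, a succinate-CoA ligase subunit, at 0.08 (SE 0.04, limma adjusted p = 0.21). Aldh5a1, the dehydrogenase that acts after Abat, had 0.07 (limma adjusted p = 0.556) at its brighter probeset and 0.46 (limma adjusted p = 0.0746) at 1371062_at.

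Dimmer probesets of these genes gave 2 calls of 9, where 5.51% of all probesets were called, and both were lost with the RNA control covariate. Glul, glutamine synthetase, was higher in AU-act rats by 0.37 at 1367633_at (limma adjusted p = 0.0256), and had 0.25 at 1386870_at (limma adjusted p = 0.0567) and 0.02 at its brightest probeset 1367632_at (limma adjusted p = 0.846). The control difference had r = -0.75, -0.64 and 0.01 with these 3 probesets, and with it as a covariate 1367633_at had 0.13 (limma adjusted p = 0.628). Slc1a3, the astrocytic glutamate transporter gene, was higher by 0.20 at 1388064_a_at (limma adjusted p = 0.019) and had 0.02 at its brightest probeset (limma adjusted p = 0.818) and -0.03 at 1371130_at (limma adjusted p = 0.97), and it was named after its values were seen. The control difference had r = -0.80 with 1388064_a_at, which had 0.07 with it as a covariate (limma adjusted p = 0.596). The other 7 dimmer probesets, of Aldh5a1, Glul, Glud1, Slc38a1, Slc1a1, Slc1a2 and Slc1a3, were not called.

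Markers of the cells that hold these genes were counted at each gene's brightest probeset. Of 22 interneuron markers 11 had a probeset, and 1 was called higher in AU-act rats, where 5.51% of all probesets were called. It was Kit, a receptor kinase gene of some interneurons, at 0.44 (limma adjusted p = 0.00412). With the RNA control covariate limma called 1 of all probesets, and the value of Kit with it is not reported here. The other interneuron markers did not pass. Vip, a peptide of a class of interneurons, had -0.34 (limma adjusted p = 0.203). Pvalb, the calcium-binding protein of fast-spiking interneurons, had 0.08 (limma adjusted p = 0.639). The mean log2 level over the interneuron list lay between 8.54 and 9.21 in AU-act rats and between 8.66 and 9.09 in AI-act rats, with means of 8.83 ± 0.18 (SD, n = 16) in AU-act and 8.82 ± 0.13 (SD, n = 15) in AI-act rats. The median difference over the list was -0.01. The median of the 5 member probesets, 0.11, is not a like measure. It counts both Gad1 probesets and is the value of Abat, and the 2 medians were not compared by a test. Astrocyte markers, of which 12 of 13 had a probeset, gave 0 calls and a median of -0.00, with Acsbg1 at 0.09 (limma adjusted p = 0.248) and Gfap at 0.08 (limma adjusted p = 0.426).

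The tissue was checked against markers of its label. Of 10 CA3 and CA2 markers 8 had a probeset, and all 8 AU-act minus AI-act differences were above 0 with 0 calls (median 0.07). Their mean log2 level lay between 10.80 and 11.10 in AU-act and between 10.62 and 10.99 in AI-act rats. Dentate granule markers (3 of 8 measured) had a median of -0.11 and CA1 markers (7 of 8) of -0.16, with 0 calls each. The granule value differed in sign between the tasks. Its median was -0.39 for AU-S minus AI-S, with 0 of 3 markers above 0 (Prox1 -0.51, Calb1 -0.39), and 0.08 for AU-NS minus AI-NS, with 3 of 3 above 0 (Prox1 0.34), again with 0 calls. With the granule and CA1 scores as covariates the dimmer Gad1 probeset had 0.60 and Gad2 0.52, and both passed. Within the tasks these covariates gave 0.49 and 0.41 for AU-S minus AI-S and 0.62 and 0.53 for AU-NS minus AI-NS, with no call. Oligodendrocyte, microglia and vascular markers gave 0 calls, with medians of 0.07, -0.06 and -0.01. The median of an array ranged between 8.97 and 9.14, and arrays correlated with the rest at 0.981 to 0.989 on average.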

How the data were processed

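The authors made the deposited log2 values with gcRMA from Affymetrix rat arrays. The version is not given in the sources used here. 1 AI-NS array was left out by the authors as an outlier. Groups came from the sample labels, and RNA of each rat was on its own array. The table holds 16204 probesets from 1.312 to 16.12, and the authors' lower limit of 4 on the log2 mean removed 0 of them. The smallest probeset mean was 5.0002, and the paper gives the array more probesets than these. Percentiles and shares of all probesets are thus over the 16204 alone. Arrays give no counts, so their number limits precision.

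Two-sided tests were made with limma 3.58.1 (lmFit, eBayes) under R 4.3.3, and Benjamini-Hochberg adjustment ran over the whole table. An adjusted p under 0.05 was called where all rats entered, and under 0.1 for the interaction and within one task or phenotype. Single values were compared by permutation (Python 3.11, scipy 1.17.1, 100000 resamples or exact). Of these steps, only the limma fits without covariates were run on simulated data. The simulated noise was independent between probesets, with no shared RNA length part. Probesets took their gene from the platform annotation (12242 with a single gene, 293 with several, 3669 with none), and gene positions and upstream bases are from RefSeq on GRCr8.

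The members and the 9 gene lists (109 genes) were chosen with earlier results of these data known. Named genes are every member probeset, the 3 list genes with the smallest pooled adjusted p, a few transporters and enzymes at every probeset, and the 3 probesets most like each member's brightest. The correlations used all 5 probesets in place of 1 per gene, since Slc6a11 had none. Alternatives were other intensity limits, array weights, centring on the median, quantile normalization, an eBayes prior with trend, SAM coded by hand (100 permutations), covariates for RNA control and dissection, the other factor as a term, all 4 groups in one fit, a block for the replicate number, the mean over the probesets of Gad1, and single arrays left out. The hexokinase covariate and the comparison of the Gad1 pair were added after the data were seen. Figures were drawn with matplotlib 3.10.9.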

Additional observations from a re-analysis of the deposited data

Results flagged for a closer look

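In 28 groups of 7 or 8 rats tested for a distant rat, 5 had one by Dixon's criterion, where chance gives about 1 in 20. AI-S replicate 6 was the lowest of its group for the dimmer Gad1 probeset (7.31, nearest other rat 7.80) and for Gad2 (7.90, nearest 8.71). The control difference of that rat was 1.68, the second highest of the AI-S rats. Without it the pooled difference was 0.51 for the dimmer Gad1 probeset (limma adjusted p = 0.00504) and 0.42 for Gad2 (limma adjusted p = 0.0655). AI-S replicate 2 was the highest of its group for Slc32a1 (8.69, nearest 8.39). The control difference itself had a distant highest rat in AU-S, replicate 5 (1.72, nearest 1.51), and in AI-NS, replicate 8 (1.92, nearest 1.64).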

How the results depend on the processing

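Under 14 alternatives, the AU-act minus AI-act differences of the dimmer Gad1 probeset and Gad2 kept their direction and passed in 12, the exceptions being the RNA control and hexokinase covariates, with which 0 members passed, against 2. The count of all probesets was 591 with the replicate number as a block, 1 with the RNA control covariate and 0 with hexokinase, against 893. Leaving out each rat gave 1 to 2 members. The mean over both Gad1 probesets passed (0.3271), where the brighter alone did not, and that mean was not fitted with a control covariate. For AU-S minus AI-S, the count of 67 became 9 with median centring, 12 with quantile normalization, 551 with array weights, 3 with the replicate block, 1 with the RNA control covariate, 0 with granule and CA1 scores, 255 with SAM and 0 with hexokinase, and 5 to 448 without single rats, which moved it in 15 of 16 cases. With array weights 1 member passed (the dimmer Gad1 probeset, 0.5813). For AU-NS minus AI-NS, the count of 0 became 40 with array weights, 163 in the fit of all 4 groups and 15 with SAM, and 0 to 208 without single rats (AI-NS replicate 3 gave 208, AU-NS replicate 5 gave 2 and AU-NS replicate 8 gave 1). 1 member passed in the fit of all 4 groups (the dimmer Gad1 probeset, limma adjusted p = 0.0815), and 0 to 1 without single rats. Signs turned, with no call, for Slc32a1 with hexokinase when pooled (-0.0549), with array weights in NS (0.0152) and in AU-S minus AU-NS (0.0257), and for Gad2 in AU-S minus AI-S with hexokinase (-0.1584). They turned for the dimmer Gad1 probeset in AU-S minus AU-NS (0.0297) and S minus NS (0.05) with the RNA control, in S minus NS with hexokinase (0.0046) and in AI-S minus AI-NS with array weights (-0.0524). Abat turned with granule and CA1 scores in AU-S minus AU-NS (0.0731) and AI-S minus AI-NS (0.0226), and in the interaction with array weights (-0.0397), as did the brighter Gad1 probeset (0.0232). Leaving out single rats also turned signs, with no call, over these ranges. For AU-act minus AI-act they were Slc32a1 -0.0067 to 0.0615. For AU-NS minus AI-NS they were Slc32a1 -0.0841 to 0.0472. For AU-S minus AU-NS they were Slc32a1 -0.1005 to 0.0458 and Abat -0.0764 to 0.0348. For AI-S minus AI-NS they were the brighter Gad1 probeset -0.0689 to 0.0022, the dimmer Gad1 probeset -0.005 to 0.1655, Gad2 -0.2161 to 0.058 and Abat -0.1184 to 0.0179. For S minus NS they were the dimmer Gad1 probeset -0.0934 to 0.0142 and Abat -0.0678 to 3e-04. For the interaction they were the brighter Gad1 probeset -0.0582 to 0.032 and Abat -0.0329 to 0.1033. The labels do not say whether the replicate number pairs rats. Over 15 pairs of rats with the same number, the correlation of deviations lay between -0.30 and 0.31, with 3 above 0.1. Of 15 AU rats, 2 correlated best with the AI rat of their own number. So few pairs cannot show that the number pairs none. The block changed no member's call. The cause of these changes was not tested.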
